A study of Gallus gallus with 6 samples.

Results

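The loci described here are 150 abundant chicken loci whose level stayed within a narrow band in the eyelid tissue of 6 Lindian chickens, a native breed from China. They were chosen by their measured values. Among loci with an Ensembl chicken identifier, those with a difference of less than 0.8 between the highest and the lowest bird on the log2(FPKM + 1) scale were kept, and the 150 with the highest mean FPKM were taken. FPKM counts sequenced fragments per kilobase of a locus, relative to the fragments of the whole library. The 150 members come from 15508 Ensembl loci and from 17780 loci in all. Eyelid tissue had been taken from 3 birds with black eyelids and 3 birds with light-yellow eyelids, killed at 30 weeks of age. Each bird gave 1 library of total RNA, and no treatment or mutant allele is named for either colour. The study asked which transcripts go with eyelid pigmentation. The rule for the members did not use the colour labels. Its limit spans the birds of both colours, so it left out any locus with a difference of 0.8 or more between them.

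Transcripts that are abundant and even between samples typically encode parts of the ribosome, translation factors, actin and other cytoskeletal proteins, or subunits of the mitochondrial respiratory chain. Such transcripts are the usual source of reference genes for quantitative PCR, which rests on their level being even between samples. The eyelid is thin skin over muscle, with epidermis, dermis, vessels and pigment cells, so a tissue sample mixes many cell types. The table gives identifiers without gene names, and no identifier could be paired with a symbol. Which of these functions the members serve was therefore not analysed here, and the tissue could not be checked against its markers. The members are called by their rank in mean FPKM, and 4 of them are given by identifier.

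The total of reads on which each library was scaled, recovered from the steps between the FPKM values, ran from 17116783 to 20621850, and every one of the 150 members had whole reads recovered. A member rested on 417 to 240691 reads per library, with a median of 11248. Counting error was accordingly small, at a median of 0.014 on the log2 scale and at most 0.060. The labels name no batch or date. The spread given below is that between birds, each with 1 library. Abundant loci can have near-identical copies elsewhere in the genome, and how reads shared between copies were counted is not stated in the labels.

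Mean levels ran from 5518 FPKM at rank 1 through a median of 401.5 FPKM to 210.3 FPKM at rank 150. A mean of at least 1000 FPKM was reached by 31 members and one of at least 500 FPKM by 68. The 10 most abundant members held 28.7% of the members' summed mean FPKM and the 50 most abundant held 70.6%. Together the 150 members took 18.7% ± 0.88 (SD, n = 6) of all FPKM in a library and 12.7% ± 0.70 (SD, n = 6) of the recovered reads. By bird, the share of summed FPKM was 18.3%, 17.7% and 18.1% in black-eyelid birds 1, 2 and 3. In light-yellow birds 1, 2 and 3 it was 18.7%, 20.1% and 19.3%. Every light-yellow bird was above every black-eyelid bird in this share, and no test is given because the members were chosen on these values. In a mixed tissue, fewer cells of a type and less RNA per cell cannot be told apart.

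The member at rank 1, ENSGALG00000015917, stood at 5138, 5034 and 5148 FPKM in black-eyelid birds 1, 2 and 3. It stood at 5471, 6971 and 5347 FPKM in light-yellow birds 1, 2 and 3. The black-eyelid birds lay close together, and light-yellow bird 2 stood apart above the rest. The implied length of this locus was 1684 bases, and it took 145099 to 240691 reads per library. An implied length is the shortest that gives whole reads in every library. The length by which the authors divided could be a multiple of it, with the reads raised likewise. Its mean was 5107 ± 63.3 FPKM (SD, n = 3) in black and 5929 ± 904 FPKM (SD, n = 3) in light-yellow eyelids.

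The order of birds differed among the next members. At ranks 3, 4, 7 and 8, as at rank 1, every light-yellow bird was above every black-eyelid bird. At ranks 2, 5 and 6 the colours overlapped. The member at rank 2 stood at 3833, 4538 and 5734 FPKM in black-eyelid birds 1, 2 and 3, whereas light-yellow birds 1, 2 and 3 stood at 5584, 3910 and 3392.5 FPKM. Here black-eyelid bird 3 and light-yellow bird 1 were high together, and each colour spanned most of the range. The member at rank 6 stood at 2947, 2678 and 2882 FPKM in the birds with black eyelids and, in those with light-yellow eyelids, at 2980, 2491.5 and 4224 FPKM, with light-yellow bird 3 alone high. At rank 7 the values were 2428, 2430 and 2472 FPKM with black eyelids, against 3615, 3564 and 2934 FPKM with light-yellow eyelids. The black-eyelid values nearly coincided there, and every light-yellow value was higher.

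**Figure D1:**
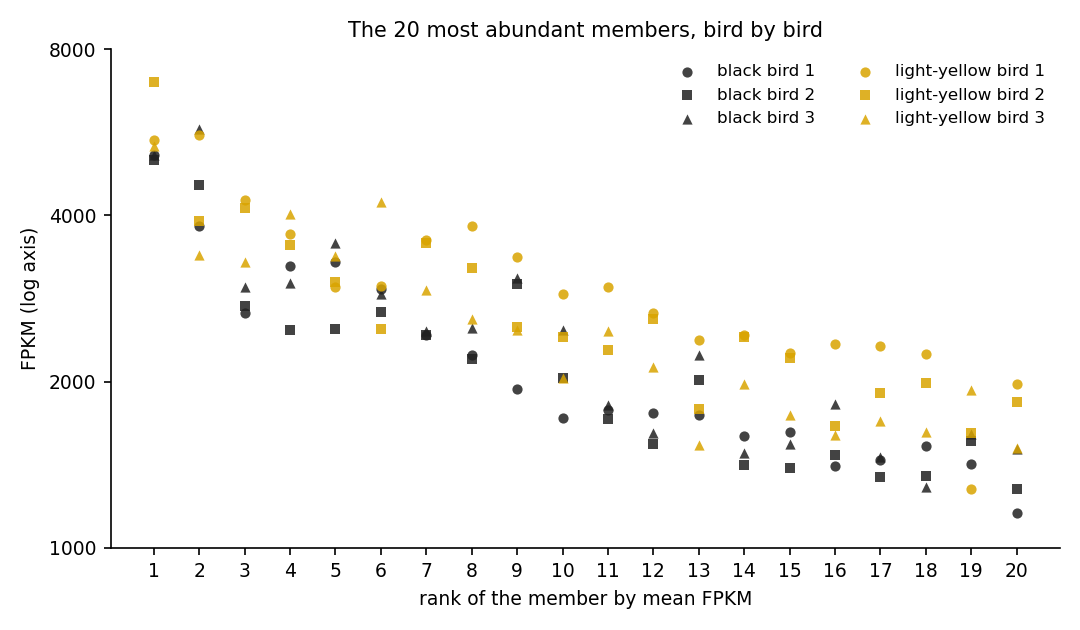
FPKM (log axis) of the 20 most abundant members in each of the 6 birds, by rank in mean FPKM; black symbols are black-eyelid birds, yellow symbols light-yellow birds, and the shape gives the bird number. Light-yellow bird 1 is the highest symbol at most ranks from 7 on, and the members at ranks 2 and 6 show other orders of the birds.

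Within the limit of 0.8 that the rule set, the members' range had a median of 0.59 and a lowest value of 0.13. As a ratio of the highest to the lowest bird, the median was 1.5-fold and the largest 1.74-fold. The range was under 0.2 for 5 members, under 0.4 for 25 and under 0.6 for 81. The steadiest member, ENSGALG00000008667 at rank 54, stood at 665.9, 608.5 and 633.4 FPKM in black-eyelid birds 1, 2 and 3. It stood at 633.3, 631.2 and 617.2 FPKM in light-yellow birds 1, 2 and 3. Black-eyelid birds 1 and 2 marked both ends of this range, so the birds of the other colour lay inside it. The mean was 636 ± 28.8 FPKM (SD, n = 3) in black and 627 ± 8.75 FPKM (SD, n = 3) in light-yellow eyelids. The next steadiest member, at rank 86, stood at 338.5, 362.5 and 323.4 FPKM in the birds with black eyelids and, in those with light-yellow eyelids, at 327.5, 347 and 326.5 FPKM, with bird 2 the highest of its colour in both.

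The SD over the 6 birds had a median of 0.22 on the log2 scale. It was a median of 15.5 times the SD that counting alone would give, at least 5 times for 142 members and 2.84 times for the lowest. Reads without molecular identifiers are not independent molecules, so this compares with counting error only. With 1 library per bird, variation between birds and between library preparations cannot be told apart. The range tended to be wider for the more abundant members (Spearman rho 0.30 across 150 members) and for the shorter ones (rho -0.23). Members share the same 6 libraries, so these values are descriptions.

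Members were a minority among loci of their abundance. Of the 340 Ensembl loci with a mean at or above that of rank 150, 150 were kept (44.1%) and 190 were left out for their range. The left-out loci had a median range of 1.15, with 65 of them between 0.8 and 1 and 22 at 2 or more, up to 4.73. Among 11780 Ensembl loci averaging 1 FPKM or more, 55.3% had a range under 0.8. The added 1 in log2(FPKM + 1) narrows the range of loci near 1 FPKM, so the 2 shares are not directly comparable. Of 28 non-Ensembl loci as abundant as the members, 3 had a range under 0.8. The members closest to the limit were those at ranks 18, 58 and 8, with ranges of 0.798, 0.798 and 0.797, and the closest loci outside it had 0.803, 0.809 and 0.810. At the other limit, ranks 149 and 150 had means of 210.5 and 210.3 FPKM, and the next steady loci, just below, had 209.4 and 209.2 FPKM. Neither limit falls at a gap in the values.

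**Figure D2:**
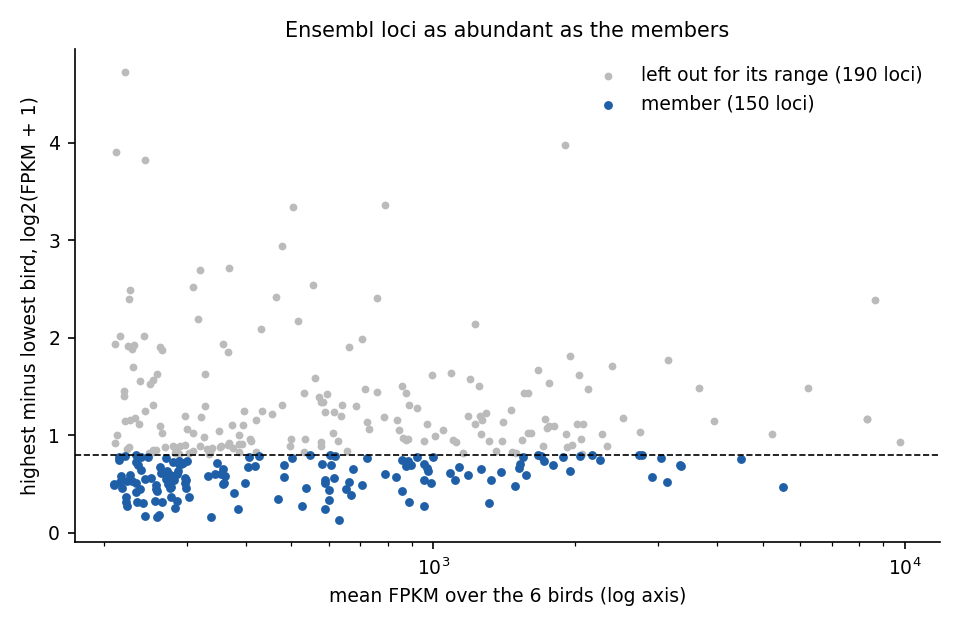
Range across the 6 birds (highest minus lowest, log2(FPKM + 1)) against mean FPKM (log axis) for the 340 Ensembl loci at least as abundant as the member at rank 150. The dashed line is the limit of 0.8; the 150 members lie below it, the 190 left-out loci above it reach 4.73, and loci crowd on both sides of the line.

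Because all 6 birds entered the choice, steadiness was also looked at in birds that did not. The same rule was applied to 5 birds, and the 150 loci so chosen were read in the left-out bird as its log2(FPKM + 1) minus the mean of the other 5. With light-yellow bird 3 left out, 135 of the 150 loci (90%) lay within 0.4 of that mean, and with light-yellow bird 2 left out 129 (86.0%). For black-eyelid birds 3, 2 and 1 the numbers were 122 (81.3%), 116 (77.3%) and 108 (72.0%). Light-yellow bird 1 departed most, with 72 of 150 (48.0%) within 0.4 and a median deviation of 0.37. In that bird 111 of the 150 loci were above the mean of the other 5, up to 2.07 above it. For equally abundant loci that failed the range limit in the same 5 birds, the corresponding share was 38.1% in light-yellow bird 1 and 55.6% to 67.5% in the other 5 birds. Of the 150 loci chosen without light-yellow bird 1, 105 are among the members, against 122 to 140 when any other bird was left out.

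**Figure D3:**
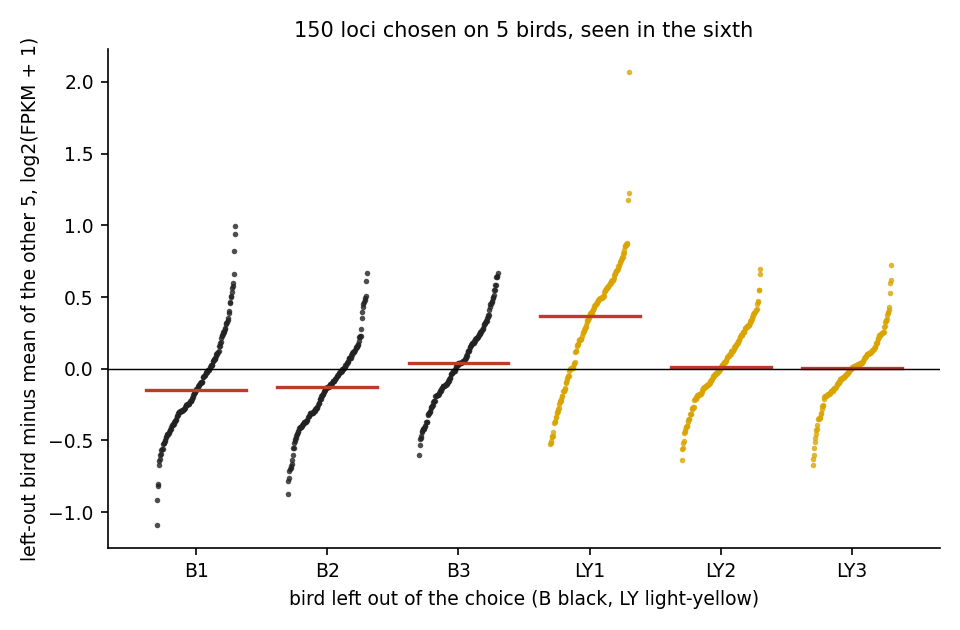
For each bird, the 150 loci chosen on the other 5 birds, drawn in order of their deviation in the left-out bird (its log2(FPKM + 1) minus the mean of the other 5); the red line is the median. The medians lie between -0.15 and 0.04 for 5 birds and at 0.37 for light-yellow bird 1.

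Loci were also chosen in the birds of a single colour, an alternative added after the data had been seen. Of the 150 abundant loci steady in the 3 black-eyelid birds, 126 (84.0%) also had a range under 0.8 in the 3 light-yellow birds, with a median range there of 0.49. Among the 50 equally abundant loci that were not steady in the black-eyelid birds, 21 (42.0%) had. Of the 150 steady in the light-yellow birds, 128 (85.3%) had a range under 0.8 in the black-eyelid birds, against 26 of 55 (47.3%) of those not steady. The members include 81 of the former 150 and 79 of the latter. A range over 3 birds is at most that over all 6, so the limit of 0.8 was easier to meet within 1 colour.

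Within their narrow band the members did not deviate evenly over the birds. Light-yellow bird 1 was the highest bird for 59 members, black-eyelid birds 3 and 1 for 24 and 20, light-yellow bird 2 for 17, and black-eyelid bird 2 and light-yellow bird 3 for 15 each. Black-eyelid birds 1 and 2 were most often the lowest, for 33 and 32 members, and light-yellow bird 1 was the lowest for 30. Light-yellow bird 1 was thus often at either end, and light-yellow bird 3 was the lowest for the fewest members, 14. The median deviation from a member's own mean was -0.063, -0.071 and 0.021 in black-eyelid birds 1, 2 and 3. For light-yellow birds 1, 2 and 3 it was 0.10, 0.027 and 0.013.

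The first principal component of these deviations held 39.4% of their variation and set light-yellow bird 1, at 0.25, against black-eyelid bird 1, at -0.18 (root-mean-square deviation per member, log2 scale). The other 4 birds lay between -0.067 and 0.053. The second component held 31.9%. On it every light-yellow bird scored above every black-eyelid bird, with a narrow gap between black-eyelid bird 1 and light-yellow bird 1. Black-eyelid birds 1, 2 and 3 scored 0.035, -0.15 and -0.17 on it, and light-yellow birds 1, 2 and 3 scored 0.058, 0.15 and 0.076. Black-eyelid bird 1 lay near light-yellow birds 1 and 3 on it.

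**Figure D4:**
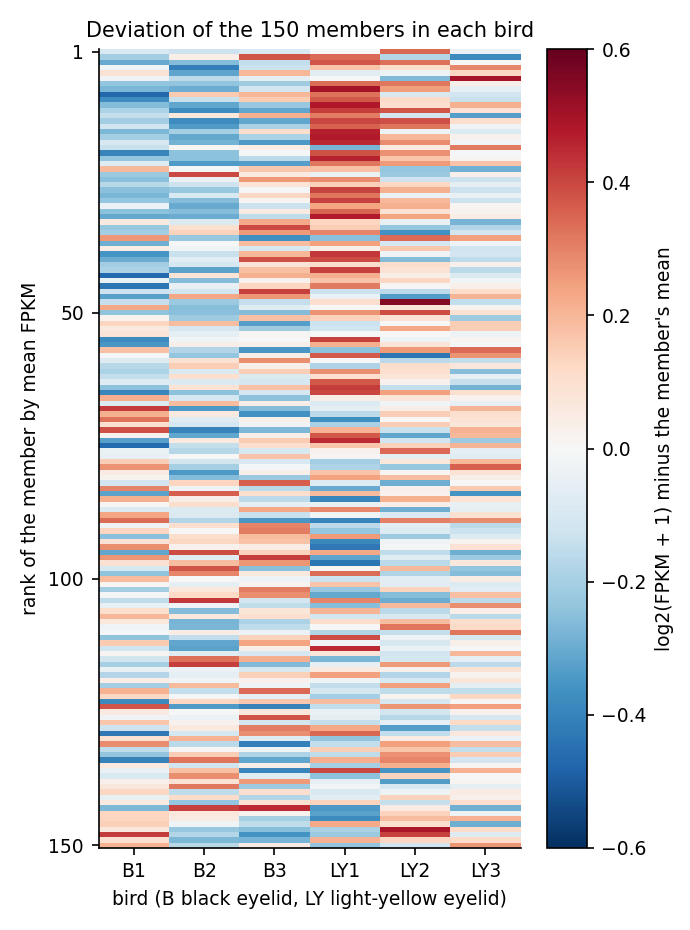
Deviation of each of the 150 members from its own mean over the 6 birds (log2(FPKM + 1)), with members in rows by rank in mean FPKM and birds in columns; red is above and blue below the mean, and the scale ends at 0.6 against a largest deviation of 0.549. Red in light-yellow bird 1 and blue in black-eyelid birds 1 and 2 fill most of the top 50 rows, where median deviations are 0.31, -0.21 and -0.21, and no such column stands out below.

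That pattern was concentrated among the most abundant members. In the 50 members at ranks 1 to 50, the median deviation was 0.31 in light-yellow bird 1 and 0.10 in light-yellow bird 2, against -0.21 in both black-eyelid bird 1 and black-eyelid bird 2. Black-eyelid bird 3, at 0.034, and light-yellow bird 3, at -0.017, lay near 0, each on the opposite side of 0 from the other birds of its colour. Light-yellow bird 1 was the highest bird for 33 of these 50. At ranks 51 to 100 and 101 to 150 it was the highest for 15 and 11 and the lowest for 15 and 14, and every bird's median deviation was within 0.051 of 0. Library-wide, light-yellow bird 1 went the other way. Over the 13253 loci averaging 1 FPKM or more, its median deviation was -0.16, while the 190 left-out abundant loci had 0.41 there. Its median-of-ratios factor, the median ratio of its values to each locus's geometric mean, was 0.903, against 1.01 to 1.05 in the other birds.

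Steadiness therefore depended on the scale. After each library was divided by its median-of-ratios factor, the members' median range went from 0.59 to 0.65, the largest reached 1.02, and 40 of the 150 were at or over 0.8. Of these 40, 37 were highest in light-yellow bird 1 and 31 were shorter than the median member. The rule applied to the rescaled values kept the other 110.

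Members were short loci, a property that enters FPKM as its divisor. The implied length had a median of 1061.5 bases and ran from 141 to 5706 bases, and 128 of the 150 were shorter than the median of 2141 bases over tested Ensembl loci. The left-out abundant loci had a median of 942 bases. Shorter members tended to be the more abundant ones (Spearman rho -0.30 across 150 members). The shortest member, at rank 145, had 417 reads in its lowest library and stood at 235.9, 223.3 and 187.9 FPKM in the birds with black eyelids and, in those with light-yellow eyelids, at 166, 245.6 and 249 FPKM. The longest, at rank 136, stood at 222.1, 259.5 and 174.1 FPKM in the birds with black eyelids and, in those with light-yellow eyelids, at 302.5, 178.9 and 265.1 FPKM. Neither separated the colours.

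Length also went with the bird pattern. In the 50 shortest members, of 141 to 830 bases, the median deviation was 0.28 in light-yellow bird 1 and -0.19 in black-eyelid bird 1. In the 50 longest, of 1519 to 5706 bases, it was -0.11 and 0.058. Light-yellow bird 1 was the highest bird for 33 of the shortest 50 and for 6 of the longest 50. Other tested Ensembl loci showed a step of the same sign, with a median deviation in light-yellow bird 1 of 0.041 for 1178 loci of 141 to 830 bases and of -0.21 for 7049 loci of 1519 to 5706 bases. In black-eyelid bird 1 the same medians were -0.13 and 0.093. The part of length or of library composition in these differences was not tested.

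Between the colours, none of the 150 members passed at an adjusted p under 0.05 (limma, Benjamini-Hochberg over 13253 loci; the smallest was 0.999), beside 0.0302% of all tested loci. At an unadjusted limma p under 0.05 there were 7 members (4.67%), beside 2.60% of all tested loci. All 7 were higher in light-yellow eyelids, where the shares over all tested loci were 1.09% higher in light-yellow and 1.51% higher in black. The voom fit of limma to the recovered reads also called 0 members, beside 7 of 13252 loci. At an unadjusted p under 0.05 it gave 12 members, beside 2.48% of the loci. The rule had bounded the members' differences on these same values, so nothing about the members is read from these counts. The count of 7 varied with single birds. It was 10 of 150 without light-yellow bird 3, beside 2.2% of all tested loci. Without black-eyelid bird 1 it was 7 (4.67%, 6 of them higher in light-yellow), beside 9.2%. It was 0 without light-yellow bird 2, beside 1.8%, and 1 without black-eyelid bird 3, beside 1.5%. Without black-eyelid bird 2 it was 1 (a member higher in black), beside 1.9%, and without light-yellow bird 1 it was 3, beside 3.1%. The median 95% confidence interval of a member's log2 difference reached 0.48 to either side, and it lay within -1 to 1 for all but 3 members. The rule had also bounded the spread behind these intervals, so no limit on a colour difference is read from them.

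The member lowest in black relative to light-yellow eyelids was ENSGALG00000005922, at rank 14 and with an implied length of 952 bases. It stood at 1592, 1416 and 1485 FPKM in black-eyelid birds 1, 2 and 3, whereas light-yellow birds 1, 2 and 3 stood at 2433, 2407 and 1980 FPKM. Every light-yellow bird was above every black-eyelid bird. Its mean was 1497 ± 89.0 FPKM (SD, n = 3) in black and 2273 ± 255 FPKM (SD, n = 3) in light-yellow eyelids. Black minus light-yellow, this made a log2 difference of -0.60 (SE 0.21), its 95% confidence interval running from -1.07 to -0.12 (limma adjusted p 0.999). After rescaling by median-of-ratios factors its range was over 0.8, so it would no longer be a member.

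The member highest in black relative to light-yellow eyelids was ENSGALG00000003947, at rank 96 and with an implied length of 1112 bases. It stood at 342, 270.5 and 379.4 FPKM in black-eyelid birds 1, 2 and 3, whereas light-yellow birds 1, 2 and 3 stood at 228.2, 270.5 and 244.4 FPKM. Black-eyelid bird 2 and light-yellow bird 2 were level to the first decimal, so the colours only just failed to overlap. Its mean was 331 ± 55.3 FPKM (SD, n = 3) in black and 248 ± 21.3 FPKM (SD, n = 3) in light-yellow eyelids. This made a log2 difference of 0.40 (SE 0.20), its 95% confidence interval running from -0.054 to 0.86 (limma adjusted p 0.999). For the member at rank 1 the log2 difference was -0.20 (95% confidence interval -0.74 to 0.33), and it was -0.083 without light-yellow bird 2. For the steadiest member it was 0.019 (95% confidence interval -0.39 to 0.43). Both had a limma adjusted p of 0.999. These members too were picked on the values shown, so their intervals are descriptions.

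Colours did not overlap in 32 members (21.3%), beside 6.50% of all tested loci, and again the rule had acted on these values. No such share is given for the left-out abundant loci, so nothing particular to the members is read from it. Light-yellow birds were all higher in 24 of them, beside 2.17% of tested loci, and black-eyelid birds were all higher in 8, beside 4.34%. Of the 24, 17 were among the 50 most abundant members, at ranks such as 1, 3, 4, 7, 8, 11 and 12. The member at rank 50, for example, stood at 560, 556.4 and 554 FPKM in the birds with black eyelids and, in those with light-yellow eyelids, at 798.6, 869.4 and 706.6 FPKM. The 3 black-eyelid birds nearly coincided there and the light-yellow birds were spread above them. The 8 with black higher lay at ranks 90, 91, 93, 96, 97, 107, 126 and 138. The narrowest of these, at rank 107, stood at 317.5, 288.5 and 296.4 FPKM in the birds with black eyelids and, in those with light-yellow eyelids, at 255.7, 258 and 246.9 FPKM.

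On average 92 of the 150 members were higher in light-yellow and 58 (38.7%) in black eyelids, whereas 63.0% of all tested loci were higher in black. After rescaling these shares were 27.3% and 52.3%. The members' median log2 difference was -0.061, beside 0.065 over all tested loci, and after rescaling -0.12 beside 0.011. Left-out abundant loci leaned the same way before rescaling, when grouped by the lengths of the shortest, middle and longest 50 members. From the shortest to the longest lengths, 54 of 82, 38 of 55 and 31 of 51 were higher in light-yellow. The lean was therefore not particular to the members. At ranks 1 to 50 the median was -0.21 and 40 of 50 members were higher in light-yellow eyelids. At ranks 51 to 100 it was 0.0084 with 24 of 50, and at ranks 101 to 150 -0.022 with 28 of 50. These last medians changed sign with single birds, to -0.026 at ranks 51 to 100 without black-eyelid bird 1 and to 0.0042 at ranks 101 to 150 without light-yellow bird 2. After rescaling the medians were -0.27, -0.053 and -0.083, with 41, 33 and 35 of 50 members higher in light-yellow. Leaving out any single bird kept the median of the top 50 between -0.29 and -0.15, and without light-yellow bird 1 it was -0.15 with 37 of 50 higher in light-yellow.

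By length, the median log2 difference was -0.17 in the 50 shortest members, -0.036 in the middle 50 and -0.016 in the 50 longest. The value for the shortest fell in size to -0.10 without light-yellow bird 1 and to -0.11 without black-eyelid bird 1. With 1 bird left out, the middle 50 ran from -0.058 to 0.0092 and the longest 50 from -0.044 to 0.046, so neither kept its sign. After rescaling the medians were -0.24, -0.097 and -0.077 from the shortest to the longest. Before rescaling, left-out abundant loci of the same lengths had medians of -0.25, -0.14 and -0.14. Other tested Ensembl loci of these lengths had 0.032, 0.056 and 0.068. None of the 50 shortest members had every black-eyelid bird higher, while 12 had every light-yellow bird higher. In the 50 longest members the numbers were 7 and 3. Over all tested loci, of any length, the shares were 4.34% with black higher and 2.17% with light-yellow higher. Other loci were not counted by length, so nothing particular to the members is read from these numbers. Across the members, the log2 difference had a Spearman rho of 0.29 with length and of -0.38 with mean FPKM. Over 11779 tested Ensembl loci its rho with length was 0.055. Abundance and length went together among the members, and their parts in these differences were not tested.

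**Figure D5:**
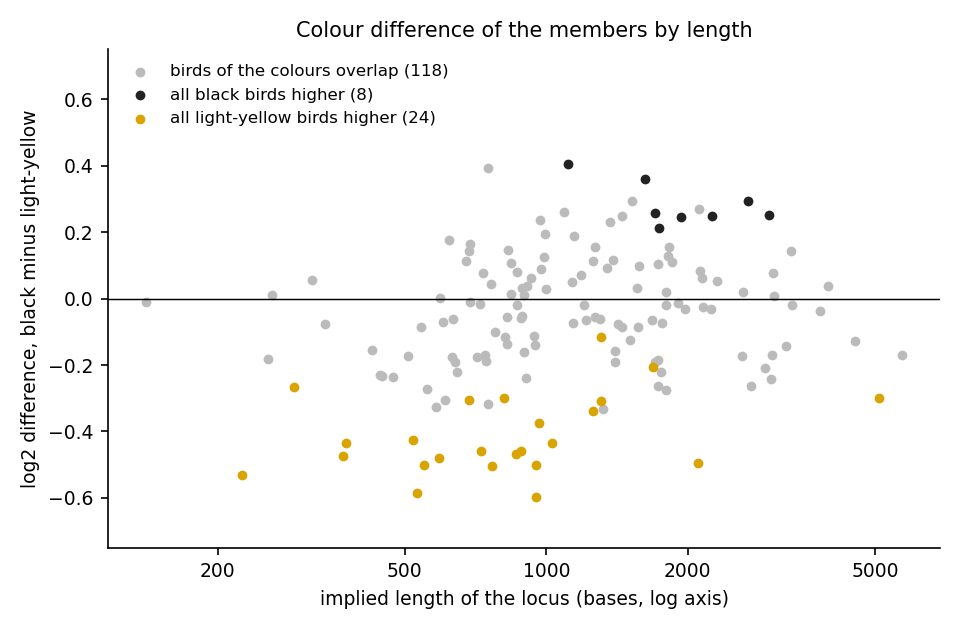
Log2 difference between the colours (black minus light-yellow, log2(FPKM + 1)) against implied length in bases (log axis) for the 150 members. Members in which every light-yellow bird was higher (24, yellow) lie at -0.60 to -0.11 and mostly at the shorter lengths, those in which every black-eyelid bird was higher (8, black) lie above 1000 bases, and the other 118 are grey.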

How the data were processed

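FPKM values, computed by the authors before deposit, were read for 6 eyelid libraries, and 0 columns were left without a bird. Cufflinks 2.1.1, DESeq 1.18.0, HTSeq 0.6.1 and TopHat were used, in roles not stated, per the submitters' processing notes. For the build, annotation and strand setting nothing is given in the sources used here. The members and lists were chosen with earlier results of these data known. Of 25635 genes in the reference table, 0 carry an Ensembl identifier, so the 17 gene lists were not used. In place of symbols, identifiers are given for the members with the highest and the lowest log2 difference, the first in rank and the smallest range.

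Whole reads were recovered for 17220 loci (99.8% of values above 0; tolerance 0.01 reads) from totals at which 98.8% of the 2342 loci used had a whole length within 0.02 bases; a common factor in a locus's reads can go unseen. Loci averaging 1 FPKM or more were compared on log2(FPKM + 1) with limma 3.58.1 in R 4.3.3 (trend, two-sided, Benjamini-Hochberg). The fit was also run on simulated data, with log2 changes larger than any of the members', so smaller ones were not covered. Alternatives changed the pseudocount, filter, scaling, block, libraries, count model and rule. Python 3.11.15, numpy 2.4.6, pandas 2.3.3 and scipy 1.17.1 were used.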

Additional observations from a re-analysis of the deposited data

How the results depend on the processing

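With limma, 0 members passed in any alternative: pseudocounts of 0.1 and 0.5, no filter, a mean of 5 FPKM, median-of-ratios rescaling, voom on recovered reads, the bird number as a replicate block (0, smallest adjusted p 1), and each bird left out (0 in all). In these alternatives 0 to 9 of all tested loci passed. At an unadjusted limma p under 0.05 they gave 0 to 12 members, beside 1.5% to 9.2% of all tested loci. The numbers do not pair the birds by the labels, and same-numbered birds deviated with correlations of -0.51, -0.059 and -0.23. Deviations from a member's own mean sum to 0 over the birds, which alone pulls such correlations below 0. With the block, 0 members had an unadjusted p under 0.05, beside 1.7% of all tested loci. The members' median log2 difference ran from -0.122 after rescaling to -0.0501 without light-yellow bird 1. With 1 bird left out, it ran from -0.0704 to -0.0501. Of the 4 named loci, ENSGALG00000008667 alone changed sign, to -0.0425 after rescaling and, with 1 bird left out, between -0.0147 and 0.0503. The log2 difference of ENSGALG00000015917 ran from -0.274 to -0.0828, the latter without light-yellow bird 2. Of the 150 members, 81 are kept with a range limit of 0.6 and 98 with 1.0, where fewer or more loci qualify, 81 when only black-eyelid and 79 when only light-yellow birds are used, and 105 to 140 with 1 bird left out. All 150 are kept with a pseudocount of 0.1. The share of summed FPKM is 20% when only Ensembl loci enter the sum, and 18.4% to 18.9% with 1 bird left out. Depth limits the members little, the lowest value resting on 417 reads.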
